A study of Sus scrofa with 12 samples.

Results

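The solute carrier (SLC) genes code for membrane proteins that move amino acids, sugars, ions, metals, vitamins and metabolites across the plasma membrane and the membranes of organelles. Here they were followed in valvular interstitial cells (VICs) of the pig aortic valve, the resident fibroblasts of the leaflet, on Affymetrix porcine 3' IVT arrays. Probe sets that carried 1 gene symbol of the SLC form were taken, without SLC2A1, SLC2A5 and SLC16A3, and were kept where 3 or more of the 12 arrays read above 4 on the log2 scale. Of 160 such probe sets for 108 genes, 120 probe sets for 87 genes passed, of 6014 genes tested in all. The other 40 probe sets did not pass, and 21 genes had no probe set that passed, among them SLC1A2, SLC6A14, SLC28A3, SLC22A2, SLC5A5 and SLC8A1. At the edge of this filter, the third-highest array read 4.04 and 4.07 for the last probe sets inside it (of SLC2A4 and SLC25A48) and 3.98 and 3.92 for the first ones outside (of SLC41A1 and SLC1A6). SLC22A3 passed only through the P0 arrays, so it had to be higher there. In 5 of the 87 genes every group mean lay under 4.58, the 95th percentile of the reporter control probe sets, which is used below as the lowest level a fold can start from. Each gene is given by its probe set with the highest mean, and 29 of the 87 had more than 1 probe set that passed. The 87 genes fall into 15 classes by substrate, and 3 of them carry an SLC name without being transporters: SLC9A3R1 and SLC9A3R2 are scaffold proteins, and SLC2A4RG is a transcription factor.

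The cells were freed from the aortic valves of adult pigs with collagenase II, and no genotype, strain or sex is named in the labels. The 4 groups held 3 biological replicates each. P0 cells were freshly isolated, uncultured and untreated. P2 cells had been passaged 2 times on plastic and were held in 1% serum to day 3 of culture, without treatment, or after 8 h or 24 h with 5 ng/ml of porcine TGF-β1, and all P2 groups were collected together. The comparison of untreated P2 with P0 cells therefore joins passaging, plastic and the change of medium, which cannot be told apart. That replicates came from separate animals is not stated, so the p-values measure the spread between these samples.

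The deposited values are log2 expression per probe set. Arrays of one group correlated at 0.982 to 0.994, and the number of arrays limits the precision. Among cell type markers, 10 of 12 VIC genes were measured, and none lay under the control level in any group; 6 fell and 1 rose from P0 to P2. Of 14 measured macrophage markers, 12 fell from P0 to P2, with their log2 summed level at 13.73 to 14.32 in P0 and 10.44 to 11.51 in untreated P2 cells. The summed endothelial level was 11.75 to 12.12 in P0 and 10.27 to 12.61 in untreated P2 cells, and in each P2 group the array numbered 3 was the lowest. In these bulk samples fewer cells of a type and less RNA per cell cannot be told apart, and the part of these markers in the SLC results was not tested, save where values without the arrays numbered 3 are given.

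Solute carriers work in sets. A plasma membrane importer supplies an amino acid, sugar or metal, carriers of the SLC25 family then pass metabolites through the inner mitochondrial membrane, and carriers of the SLC35 family bring nucleotide sugars into the Golgi for glycosylation. Fibroblasts that enter culture meet other nutrient levels than tissue, and TGF-β1 is the classic inducer of the myofibroblast state in valve cells.

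Between P0 and untreated P2 cells, 28 SLC genes rose, 25 fell and 34 did not pass the test (limma, adjusted p under 0.05 after Benjamini-Hochberg adjustment over all 17638 tested probe sets). Over all genes tested, 66.3% were called, 42.1% upward and 24.2% downward, so a call is common in this contrast. The median log2 change was -0.04 for the SLC genes and 0.20 for all genes. In 59 of the 87 genes the 3 P0 arrays and the 3 untreated P2 arrays did not overlap, beside 72.0% of all genes. At least a 2-fold rise was seen in 11 called genes and at least a 2-fold fall in 11 others, with SLC22A3 among the falls. Of all 6014 genes tested, 1097 were called with at least a 2-fold rise and 773 with at least a 2-fold fall. The classes went different ways. By the probe set with the highest mean, 14 of 20 genes of the mitochondrial carrier family and 3 of 3 carriers of Golgi and endoplasmic reticulum substrates rose, although another probe set of SLC33A1 fell. All 5 carriers of iron, manganese, copper and magnesium fell by the same measure, although SLC11A2 was not called when its probe sets were averaged.

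**Figure D1:**
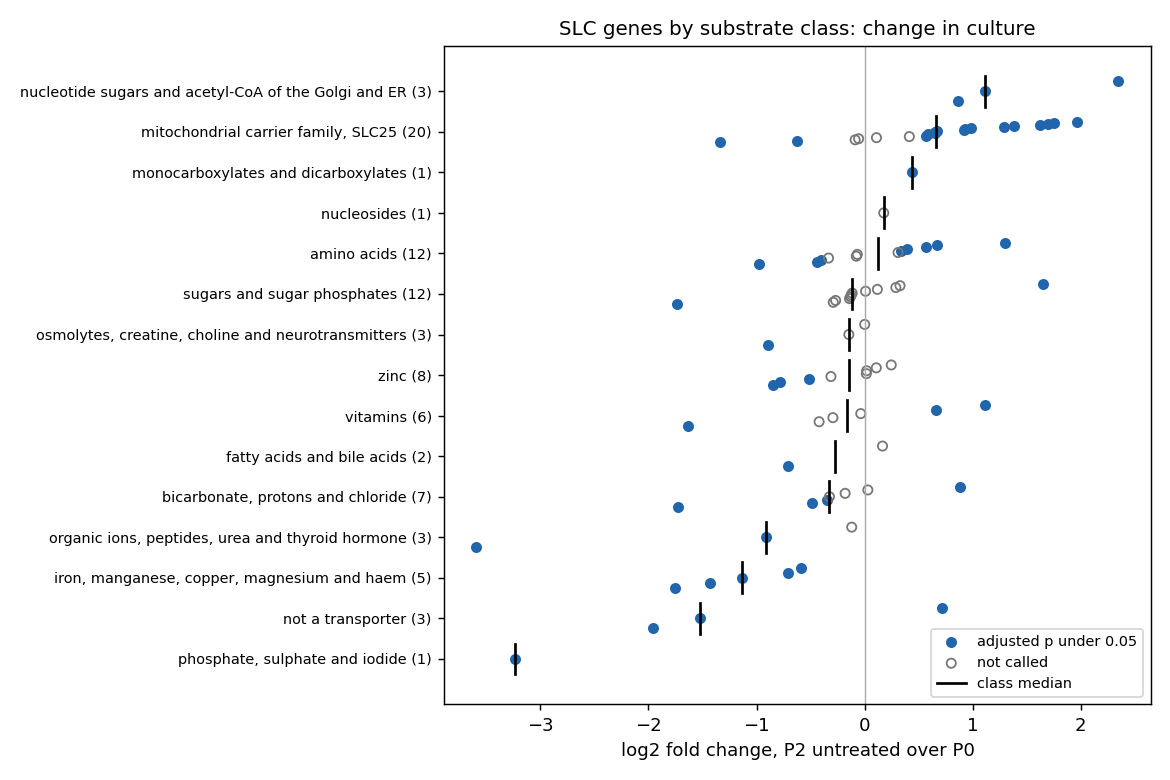
Log2 fold change of each of the 87 SLC genes from P0 to untreated P2 cells (x axis), by substrate class (y axis, number of genes in brackets). Filled points have an adjusted p under 0.05, open points do not, and black bars are class medians, which run from 1.12 for nucleotide sugars and acetyl-CoA to -3.24 for the 1 phosphate carrier.

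The mitochondrial carrier family (SLC25), which also holds a few members of other membranes, made up the largest class, with 14 of 20 genes up, 2 down and a median change of 0.66. The citrate carrier SLC25A1, which exports citrate for fatty acid synthesis, stood at 8.50, 8.38 and 8.47 in P0 and 10.26, 10.20 and 10.15 in untreated P2 cells. The rise of 1.75 ± 0.0908 (log2, SE, n = 3 against 3; limma adjusted p = 1.85e-08) was 3.37-fold, and the groups lay far apart. SLC25A21, a carrier of oxodicarboxylates from lysine and tryptophan breakdown, read 7.52, 7.32 and 7.41 in P0 and 9.34, 9.86 and 8.96 in P2 cells, a rise of 1.97 ± 0.238 (adjusted p = 1.76e-05). Its P2 arrays spread more than those of SLC25A1, with the array numbered 3 the lowest. SLC25A17, which sits in the peroxisomal membrane and is counted with its family, went from 8.90, 8.91 and 8.94 to 10.48, 10.82 and 10.54, a change of 1.70 ± 0.118 (adjusted p = 1.87e-07). SLC25A24, the calcium-dependent carrier of ATP-magnesium and phosphate, read 9.25, 9.25 and 9.30 in P0 and 10.79, 10.92 and 10.96 in P2 cells, a rise of 1.63 (adjusted p = 7.23e-07).

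The ADP/ATP carriers, which exchange ATP made in the matrix for cytosolic ADP, were all higher in culture. SLC25A5 moved from 10.33, 10.35 and 10.57 to 11.76, 11.87 and 11.78, SLC25A4 rose by 0.93 ± 0.142 (limma adjusted p = 0.000119) and SLC25A6 by 0.92 ± 0.101 (adjusted p = 8.22e-06). These 3 genes are similar in sequence, and how far their probe sets tell them apart was not tested. The phosphate carrier SLC25A3, which supplies the substrate for ATP synthesis, rose by 0.57, and its second probe set gave 0.29 without a call. The carriers of aspartate and glutamate (SLC25A12) and of oxoglutarate (SLC25A11), both part of the malate-aspartate shuttle, rose by 0.58 and 0.67. SLC25A39, needed for glutathione import into mitochondria, went from 6.29, 6.68 and 6.40 to 7.71, 7.74 and 7.78. Its P0 and P2 arrays lay over 1 log2 unit apart, at a change of 1.29 ± 0.119 (adjusted p = 1.8e-06). Both genes that fell carry other cargo. SLC25A36, a pyrimidine nucleotide carrier, read 7.96, 8.18 and 8.16 in P0 and 6.77, 6.79 and 6.73 in P2 cells, a change of -1.34 ± 0.125 (adjusted p = 2.02e-06). SLC25A37 (mitoferrin-1), the importer of iron for haem and iron-sulphur cluster assembly, was at 8.33, 8.41 and 8.02 in P0 and 7.84, 7.51 and 7.52 in P2 cells, a change of -0.63 ± 0.137 (adjusted p = 0.00173).

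The second pyrimidine nucleotide carrier, SLC25A33, was at 8.41, 8.69 and 8.42 in P0 and 9.33, 9.08 and 8.35 in P2 cells, so that the array numbered 3 lay inside the P0 range. Its change of 0.41 did not pass the test (adjusted p = 0.127) and did so without that array (adjusted p = 0.00414). SLC25A20 and SLC25A38 differed by 0.11 and -0.06 and did not pass either, and SLC25A48 was under the control level in both groups. The acylcarnitine carrier SLC25A20, through which long-chain fatty acids enter for oxidation, did not follow SLC25A1 past the threshold.

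**Figure D2:**
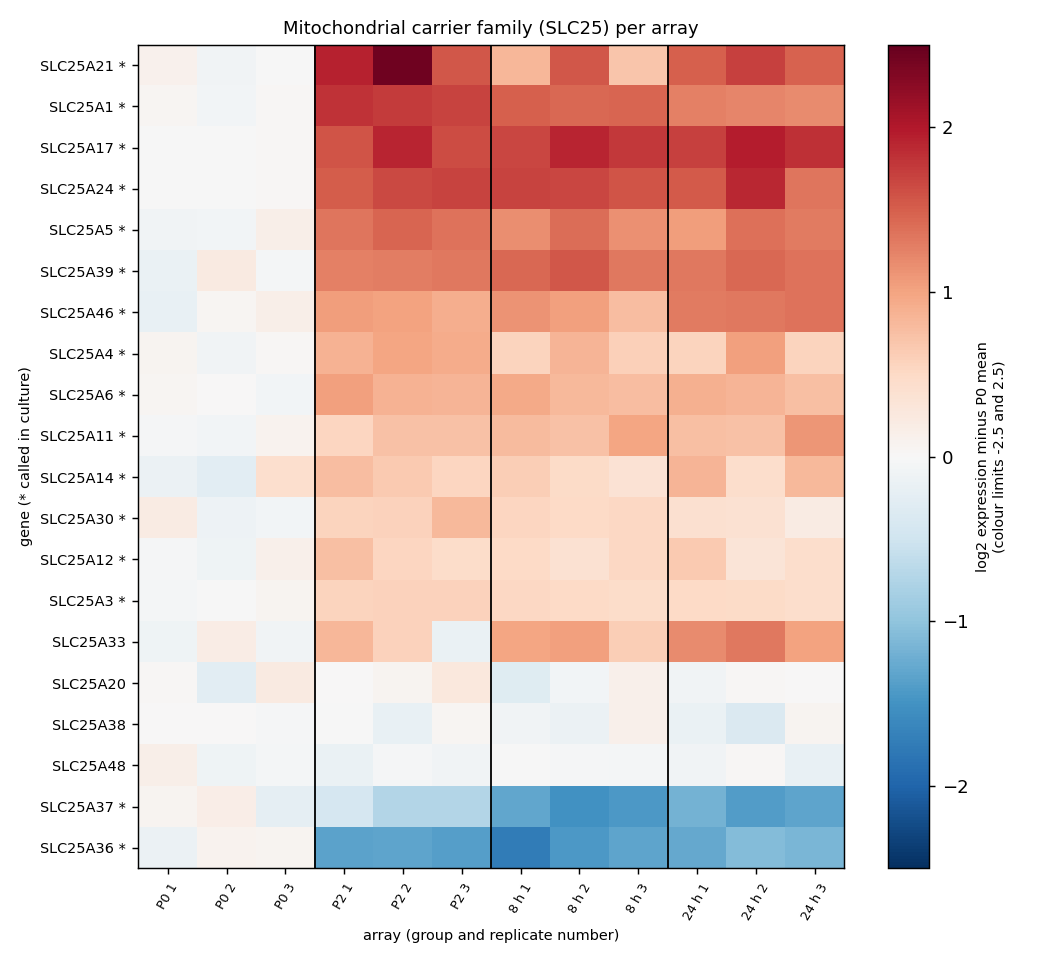
Each row is 1 of the 20 genes of the mitochondrial carrier family, each column 1 of the 12 arrays, and the colour gives log2 expression minus the gene's P0 mean (red higher, blue lower; an asterisk marks a call in culture). Rises such as that of SLC25A1 (1.75) and falls such as that of SLC25A36 (-1.34) appear in every untreated P2 array and remain on the same side of the P0 mean in the TGF-β1 arrays.

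Of the 3 genes for the Golgi and endoplasmic reticulum, SLC35A3 and SLC35A4 rose and the probe sets of SLC33A1 disagreed. SLC35A3, which carries UDP-N-acetylglucosamine into the Golgi, stood at 5.40, 5.55 and 5.93 in P0 and 7.95, 8.10 and 7.88 in untreated P2 cells. At 2.35 ± 0.148 (limma adjusted p = 8.28e-08), or 5.09-fold, this was the largest rise among the SLC genes. SLC35A4, of the same family, went from 5.97, 5.74 and 6.16 to 7.17, 7.06 and 6.98, a change of 1.12 ± 0.17 (adjusted p = 0.000115). SLC33A1, which brings acetyl-CoA into the endoplasmic reticulum for protein acetylation, went from 7.76, 7.82 and 8.02 to 8.61, 8.77 and 8.80. Its probe sets disagreed, and it was the one gene with calls in opposite directions: 2 rose by 0.86 (adjusted p = 0.000444 and 0.00344) and another fell by 0.43 (adjusted p = 0.0212), from 8.12, 8.09 and 8.16 to 7.76, 7.86 and 7.46. The direction of SLC33A1 in culture is thus uncertain.

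Metal carriers moved downward. SLC31A1 (CTR1), the high-affinity copper importer, read 10.41, 10.53 and 10.57 in P0 and 9.07, 9.23 and 8.93 in P2 cells. The difference of -1.43 ± 0.125 (limma adjusted p = 1.2e-06) was 2.69-fold, with no overlap. Its relative SLC31A2, which acts on copper in endosomes and lysosomes, fell from 6.84, 7.36 and 7.03 to 6.01, 5.92 and 5.90 (-1.14 ± 0.134, adjusted p = 1.46e-05), with both of its probe sets called. The magnesium transporter SLC41A1 was at 8.26, 8.04 and 8.49 in P0 and at 6.51, 6.73 and 6.30 in P2 cells, a change of -1.75 ± 0.177 (adjusted p = 4e-06). Its 2 other probe sets, at lower levels, gave -0.44 and -0.12 and were not called, so the fall of SLC41A1 rests on 1 probe set.

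The iron and manganese carriers changed less. SLC11A2 (DMT1), the proton-coupled importer of ferrous iron, differed by -0.59 ± 0.124 (limma adjusted p = 0.00145) between 7.18, 7.16 and 7.23 in P0 and 6.72, 6.75 and 6.34 in P2 cells. A second probe set of SLC11A2 gave 0.52 without a call, and the average over probe sets was not called (adjusted p = 0.884). SLC11A1 (NRAMP1), which pumps metals out of the phagosomes of macrophages, read 4.89, 5.26 and 5.41 in P0 and 3.74, 5.17 and 4.54 in P2 cells. The groups overlapped at a low level, the fold was at least 1.52, and the adjusted p of 0.0434 became 0.103 without P0 replicate 2, 0.131 without P0 replicate 3, 0.181 without untreated replicate 1 and 0.0714 without untreated replicate 3. In the same contrast 12 of the 14 macrophage markers fell, with a median over all 14 of -2.34, and their part in the SLC11A1 values was not tested.

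Among the 8 zinc carriers 3 fell, none rose and 5 did not pass. SLC39A1 (ZIP1), a zinc importer of the plasma membrane, fell from 11.36, 11.40 and 11.56 to 10.63, 10.71 and 10.61 (-0.79 ± 0.117, limma adjusted p = 9.85e-05), and its second probe set by 1.21. SLC39A2 (ZIP2), another importer, went from 6.14, 6.20 and 6.29 to 5.45, 5.38 and 5.25 (-0.85 ± 0.178, adjusted p = 0.00135). SLC39A14 (ZIP14), which takes up zinc and iron, read 7.19, 7.01 and 7.05 in P0 and 6.23, 6.63 and 6.85 in P2 cells. Its fall of 0.51 (adjusted p = 0.0163) did not pass without P0 replicate 1 (0.0564) or without untreated replicate 1 (0.0766). The exporters into vesicles SLC30A3 and SLC30A5 differed by -0.31 and 0.25 and were not called.

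Genes that handle iron and zinc outside the SLC families were looked at beside these carriers, with 11 of 22 listed genes measured. Of those, 3 rose and 6 fell. STEAP1, of the STEAP family, rose by 2.54 ± 0.133 (limma adjusted p = 2.01e-08). The zinc and copper buffer MT1A fell from a mean of 9.30 to 4.48 (limma adjusted p = 4.24e-09), which is under the control level. HMOX1, which breaks down haem, differed by -1.96 (adjusted p = 0.000301) and is also abundant in macrophages.

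**Figure D3:**
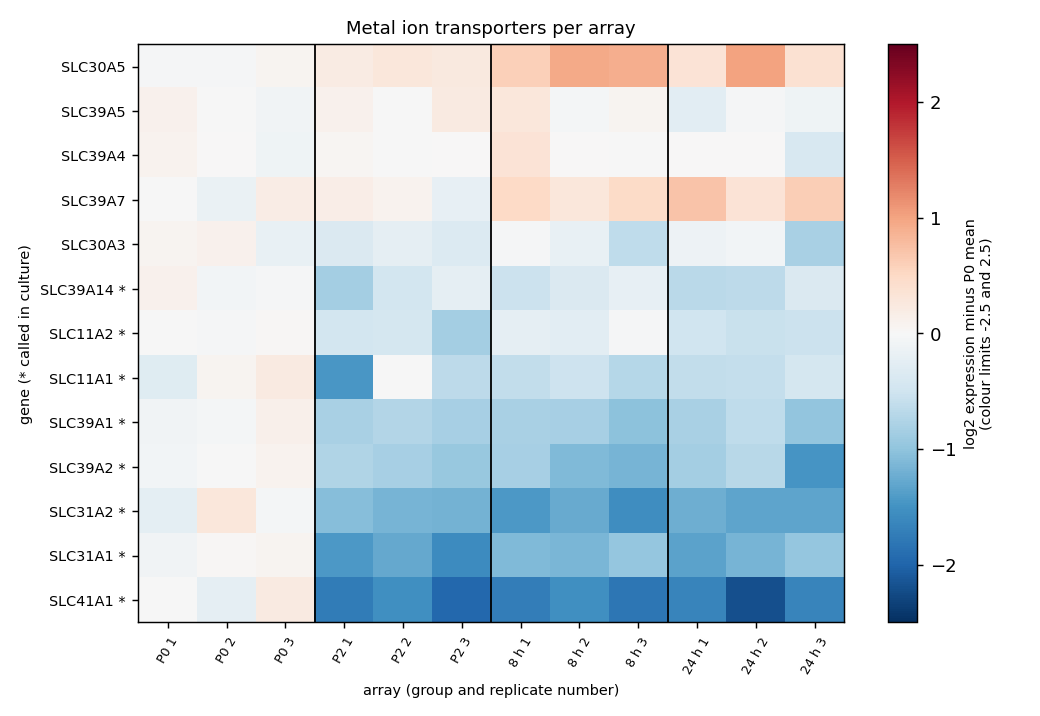
Log2 expression minus the P0 mean for the 13 genes of the zinc class and of the iron, manganese, copper and magnesium class (rows) in each of the 12 arrays (columns), with an asterisk for a call in culture. SLC41A1 (-1.75), SLC31A1 (-1.43) and SLC31A2 (-1.14) are blue in all 9 P2 arrays, and SLC39A7 is red at 24 h.

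The 12 amino acid carriers split, with 5 up, 3 down and a median of 0.12. SLC38A9, the arginine sensor of the lysosome that signals to mTORC1, rose most. It stood at 6.51, 6.41 and 6.66 in P0 and 7.93, 7.87 and 7.68 in P2 cells, a change of 1.30 ± 0.131 (limma adjusted p = 4.03e-06) that both of its probe sets called. SLC1A4, an exchanger of small neutral amino acids, differed by 0.67 ± 0.235 (adjusted p = 0.0275), but P0 replicate 1, at 6.22, lay level with the untreated P2 arrays at 6.40, 6.22 and 6.25, whereas P0 replicates 2 and 3 read 5.40 and 5.25. SLC7A1 (CAT-1), the main arginine and lysine importer, rose from 10.25, 9.97 and 9.80 to 10.55, 10.78 and 10.42, by 0.57 ± 0.17 (adjusted p = 0.0119). The adjusted p of SLC1A4 was 0.0982 without P0 replicate 2, 0.117 without P0 replicate 3, 0.0792 without untreated replicate 1 and 0.0513 without untreated replicate 3. That of SLC7A1 was 0.0514 without P0 replicate 3 and 0.0526 without untreated replicate 2.

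The heavy subunits that carry light-chain transporters to the surface went opposite ways. SLC3A1, partner of the cystine and dibasic amino acid carrier, read 6.94, 7.50 and 7.77 in P0 and 6.43, 6.42 and 6.43 in P2 cells (-0.97 ± 0.18, limma adjusted p = 0.000531). SLC3A2 (CD98 heavy chain) went from 7.53, 7.51 and 7.63 to 8.00, 7.85 and 7.84, by 0.34 ± 0.0959 (adjusted p = 0.00892). Of the glutamine importers, SLC1A5 and SLC38A1 fell slightly. SLC1A5 (ASCT2) was at 10.72, 10.83 and 10.66 in P0 and 10.38, 10.51 and 10.10 in P2 cells, a fall of 0.41 (adjusted p = 0.0421) that passed in only 1 of the 6 fits with 1 array left out, with an adjusted p of 0.0784, 0.115 and 0.0578 without P0 replicates 1, 2 and 3 and of 0.0698 and 0.159 without untreated replicates 1 and 3. SLC38A1 went from 10.40, 10.40 and 10.52 to 9.92, 10.23 and 9.84, a fall of 0.44 (adjusted p = 0.0129) that read 0.0542 without untreated replicate 3. SLC7A7, whose product exchanges cationic for neutral amino acids and is known from macrophages, differed by -0.33 and did not pass (adjusted p = 0.130). SLC7A4, 1 of the 5 genes counted as up, was under the control level in both groups, so no fold is given, and its adjusted p of 0.0461 was 0.158 without P0 replicate 2, 0.0752 without P0 replicate 3, 0.127 without untreated replicate 1 and 0.129 without untreated replicate 3.

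Of the 12 carriers of sugars and sugar phosphates 1 rose, 1 fell and 10 did not pass. SLC2A3 (GLUT3), a high-affinity glucose transporter, read 12.40, 12.28 and 12.26 in P0 and 10.70, 11.01 and 10.04 in untreated P2 cells. It fell by 1.73 ± 0.218 (limma adjusted p = 2.47e-05), a 3.32-fold difference, and the P2 array numbered 3 was the lowest in each P2 group. SLC37A4, which carries glucose 6-phosphate into the endoplasmic reticulum, rose from 6.86, 6.95 and 7.06 to 8.68, 8.59 and 8.55, by 1.65 ± 0.117 (adjusted p = 2.14e-07), and both probe sets were called. The Golgi-linked SLC50A1 differed by 0.01 without a call, and the insulin-responsive SLC2A4 (GLUT4), not called either, was under the control level in P2 cells.

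The largest falls lay in small classes. SLC34A2 (NaPi-IIb), a sodium-phosphate cotransporter best known from lung and gut epithelium, stood at 8.38, 8.25 and 8.71 in P0 and 5.15, 5.10 and 5.38 in P2 cells. The difference of -3.24 ± 0.14 (limma adjusted p = 4.38e-09) was 9.43-fold, and the 6 TGF-β1 arrays, at 4.93 to 5.48, stayed at the P2 level. SLC22A3 (OCT3), a transporter of organic cations and monoamines, read 6.94, 7.32 and 6.99 in P0 and 3.53, 3.40 and 3.55 in P2 cells, which is at least 5.65-fold lower since the P2 level is under that of the controls. As stated, this gene could only pass the level filter through P0. The carnitine transporter SLC22A5 went from 7.21, 7.52 and 6.75 to 6.54, 5.60 and 6.61, by -0.91 ± 0.263 (adjusted p = 0.0103). The third gene of its class, the organic anion transporter SLC22A6, differed by -0.12 (adjusted p = 0.602).

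Of 7 carriers of bicarbonate, protons, chloride and related anions, 1 rose and 3 fell. SLC26A11, an anion transporter that takes sulphate, fell from 8.31, 8.52 and 8.33 to 6.40, 6.49 and 7.09, by 1.72 ± 0.172 (limma adjusted p = 3.55e-06), whereas its second probe set, at about 5 in both groups, gave -0.09 and was not called. The anion exchanger SLC26A6 rose from 4.85, 5.02 and 4.33 to 5.76, 5.74 and 5.35, by 0.88 ± 0.198 (adjusted p = 0.00209). SLC12A4 (KCC1), a potassium-chloride cotransporter, and SLC4A4 (NBCe1), a sodium-bicarbonate cotransporter, differed by -0.49 (adjusted p = 0.035) and -0.35 (adjusted p = 0.0204). Neither held in every fit with 1 array left out: SLC12A4 read 0.0595 and 0.124 without P0 replicates 2 and 3 and 0.0547, 0.0569 and 0.107 without untreated replicates 1, 2 and 3, and SLC4A4 read 0.0733 and 0.0756 without P0 replicates 1 and 3 and 0.0626 and 0.0527 without untreated replicates 1 and 2. The scaffolds SLC9A3R1 (NHERF1) and SLC9A3R2 (NHERF2), which anchor ion transporters and receptors to the cytoskeleton, also fell. SLC9A3R1 went from 8.92, 9.70 and 9.27 to 7.36, 7.07 and 7.58, by -1.96 ± 0.199 (adjusted p = 4.2e-06), and SLC9A3R2 from 8.11, 8.20 and 8.37 to 6.81, 6.71 and 6.59, by -1.52 ± 0.198 (adjusted p = 3.29e-05). The exchanger they are named for, SLC9A3 (NHE3), was under the control level in every group.

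Vitamin carriers gave 2 rises and 1 fall among 6 genes. SLC5A6, the sodium-dependent carrier of biotin and pantothenate, read 6.23, 7.05 and 6.38 in P0 and 7.51, 7.65 and 7.85 in P2 cells (1.11 ± 0.211, limma adjusted p = 0.000637). The riboflavin carrier SLC52A2 rose by 0.66 ± 0.128 (adjusted p = 0.000767). SLC46A2, a relative of the proton-coupled folate carrier, went from 6.71, 6.63 and 5.86 to 4.73, 4.92 and 4.64, by -1.63 ± 0.315 (adjusted p = 0.000719). The folate carrier SLC46A1 differed by -0.42 and was not called by its probe set with the highest mean. Its second probe set was called down at -0.62. With probe sets averaged SLC46A1 was called down as well (-0.52, limma adjusted p = 0.0066). Likewise, SLC46A3 was not called by its probe set with the highest mean, at -0.29, but was called down by another, at -0.79. The average for SLC46A3 was also called down (-0.54, limma adjusted p = 0.0444). The vitamin C carrier SLC23A2 was under the control level in both groups.

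In the remaining classes few genes were measured. SLC44A2, a choline transporter-like protein, fell from 10.07, 10.19 and 10.12 to 9.11, 9.24 and 9.36 (-0.89 ± 0.125, limma adjusted p = 6.12e-05). Of its 3 probe sets 2 were called. The creatine carrier SLC6A8 differed by 0.00, with a 95% interval of -0.20 to 0.20. The fatty acid transport protein SLC27A1 went from 6.44, 6.50 and 6.12 to 5.49, 5.61 and 5.82 (-0.71 ± 0.197, adjusted p = 0.00785). Its relative SLC27A6 differed between probe sets: the one with the higher mean gave 0.17 (adjusted p = 0.235), and another read 6.55, 6.46 and 5.29 in P0 and 3.62, 4.12 and 3.72 in P2 cells, a called fall of at least 2.86-fold (adjusted p = 4.21e-05), since its P2 level is under that of the controls. SLC16A13, of the monocarboxylate family, rose by 0.44 (adjusted p = 0.0364), and its adjusted p was 0.082 and 0.121 without P0 replicates 1 and 3 and 0.0691, 0.0759 and 0.0793 without untreated replicates 1, 2 and 3. The nucleoside transporter SLC29A1 (ENT1) differed by 0.18 (adjusted p = 0.379). Partners of the transporters changed in both directions, with 3 rises and 2 falls among 8 measured genes of 15: the sodium pump regulator FXYD5 rose by 1.88 ± 0.141 (adjusted p = 3.39e-07), and the pump subunit ATP1B1 fell by 1.14 ± 0.193 (adjusted p = 0.000273). Of SLCO and ABC transporters 7 of 25 were measured, and 2 rose and 2 fell.

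**Figure D4:**
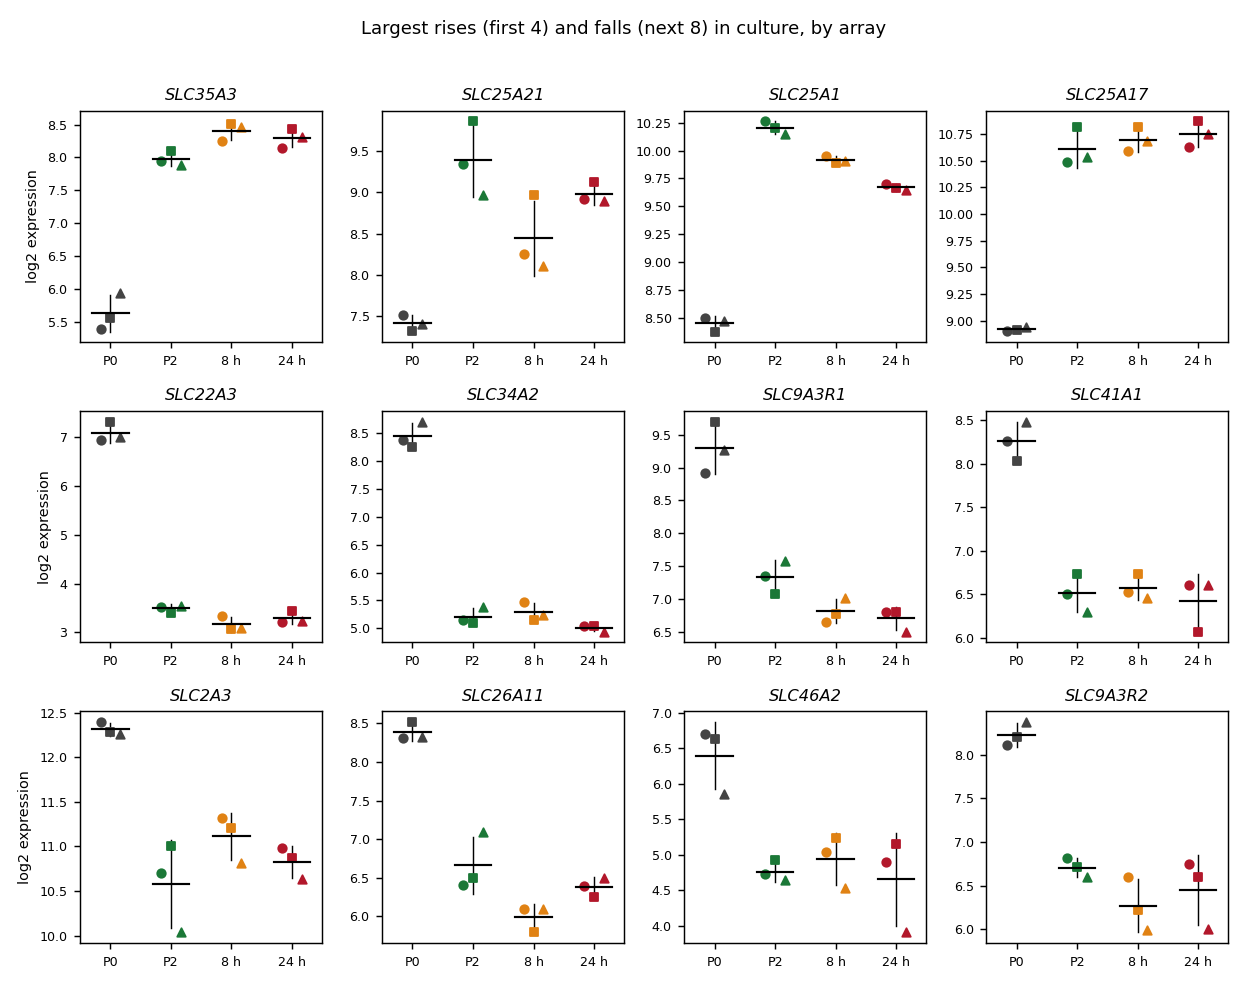
Log2 expression (y axis, own scale in each panel) in the 12 arrays for the 4 SLC-named genes with the largest rise and the 8 with the largest fall from P0 to untreated P2 cells. Points are arrays, with marker shape for the replicate number, and horizontal and vertical lines give the group mean and SD (n = 3). SLC34A2 goes from 8.25 to 8.71 in P0 down to 5.10 to 5.38 in P2, and its 6 treated arrays stay at 4.93 to 5.48.

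Few SLC genes were called with TGF-β1 in the fit without a replicate block. At 8 h against untreated P2 cells, 2 rose and 4 fell, which is 6 of 87 beside 5.59% of all genes tested (2.74% up and 2.84% down), and with array medians equalised the split was 2 up and 2 down. At 24 h 3 rose and 5 fell, beside 10.1% of all genes (4.42% up and 5.67% down), and with quantile normalisation the split was 2 up and 6 down. Arrays did not overlap in 24 SLC genes at 8 h and 30 at 24 h, beside 28.1% and 30.1% of all genes. The median log2 change was 0.02 at 8 h and -0.06 at 24 h. P2 arrays with the same replicate number deviated together, and with that number as a block over the 9 P2 arrays 5 rose and 8 fell at 8 h and 8 rose and 8 fell at 24 h, including every gene called without it. Under the same block 14.2% of all genes were called at 8 h (6.15% up and 8.03% down) and 23.1% at 24 h (10.1% up and 13.0% down), so the SLC counts lie near the background there too. The comparisons share the untreated arrays, and SLC38A9, SLC25A37 and SLC2A4RG were called at both times.

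SLC38A9, the lysosomal arginine sensor, was at 7.93, 7.87 and 7.68 in untreated cells, 8.81, 8.58 and 8.48 at 8 h and 8.67, 8.39 and 8.39 at 24 h. Every treated array was above every untreated one, by 0.80 ± 0.131 at 8 h (limma adjusted p = 0.00665) and 0.66 at 24 h (adjusted p = 0.00966), on top of its rise in culture. Its second probe set gave 0.45 and 0.20 without a call, and the 24 h call was not made with probe sets averaged (0.43, adjusted p = 0.0689) or without the arrays numbered 3 (0.056). Mitoferrin-1, SLC25A37, read 7.84, 7.51 and 7.52 untreated, 6.95, 6.74 and 6.82 at 8 h and 7.08, 6.85 and 6.94 at 24 h. It fell by 0.79 ± 0.137 at 8 h (limma adjusted p = 0.00808) and by 0.67 at 24 h (adjusted p = 0.011), below its level after culture alone. Without the arrays numbered 3 the adjusted p was 0.0649 and 0.0655. Both SLC25A37 probe sets were called at 8 h, whereas at 24 h the second gave -0.56 without a call. The transcription factor SLC2A4RG (GLUT4 enhancer factor), named for a GLUT4 promoter element it binds, stood at 8.66, 8.44 and 8.97 untreated, 8.01, 7.63 and 7.88 at 8 h and 7.58, 7.21 and 7.56 at 24 h. Its falls of 0.85 ± 0.178 (adjusted p = 0.0191) and 1.24 (adjusted p = 0.0017) took it below the P0 arrays at 24 h, at 7.81, 7.84 and 8.26. SLC2A4 itself was under the control level in the untreated and treated P2 groups, so no change can be read for it. At 8 h the call of SLC2A4RG was not made without untreated replicate 1 (0.0546) or 3 (0.0821) or without treated replicate 2 (0.0785) or 3 (0.054).

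The other 3 genes called at 8 h were mitochondrial, anion and acetyl-CoA carriers. SLC25A21, the oxodicarboxylate carrier, read 9.34, 9.86 and 8.96 untreated and 8.25, 8.96 and 8.11 at 8 h. The array numbered 2 was the highest in both groups, and with the block the adjusted p of this 0.95 fall went from 0.0416 to 0.00672. SLC26A11 stood at 6.40, 6.49 and 7.09 untreated and 6.09, 5.79 and 6.09 at 8 h, a fall of 0.67 ± 0.172 (limma adjusted p = 0.0458). Its second probe set gave -0.27 without a call. With probe sets averaged the SLC26A11 change of -0.47 was not called (limma adjusted p = 0.0572). SLC33A1 was higher in every 8 h array, at 9.46, 9.46 and 9.69 against 8.61, 8.77 and 8.80 (0.81 ± 0.155, adjusted p = 0.0131), and its 2 other probe sets gave 0.54 (adjusted p = 0.0523) and 0.70 (adjusted p = 0.0833). Its 24 h arrays, at 9.14, 9.64 and 9.04, were 0.55 above untreated (adjusted p = 0.0511), and 0.0401 with the block.

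With the block over the 9 P2 arrays, the limma adjusted p at 8 h was 0.0184 for SLC26A11 and 0.0146 for SLC33A1. Without the block, SLC25A21 passed at 8 h in 2 of 6 fits with 1 array left out, SLC26A11 in 1 and SLC33A1 in 4. Without 1 array the adjusted p of SLC25A21 was 0.0998 and 0.121 (untreated replicates 1 and 2) and 0.151 and 0.149 (treated replicates 1 and 3). That of SLC26A11 was 0.0573 and 0.139 (untreated 2 and 3) and 0.0978, 0.167 and 0.0872 (treated 1, 2 and 3), and that of SLC33A1 was 0.0511 (untreated 1) and 0.0537 (treated 3). The block added SLC2A3, SLC30A5 and SLC35A3 upward (adjusted p = 0.0459, 0.0346 and 0.0193) and SLC25A1, SLC26A6, SLC37A4 and SLC38A1 downward (0.0448, 0.012, 0.0442 and 0.0488). SLC30A5, which loads zinc into the early secretory pathway, thus read 8.71, 8.81 and 8.77 untreated and 9.12, 9.46 and 9.43 at 8 h.

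At 24 h, 5 further genes passed. The citrate carrier SLC25A1 went from 10.26, 10.20 and 10.15 to 9.70, 9.67 and 9.64, by -0.53 ± 0.0908 (limma adjusted p = 0.0043), with the 8 h arrays in between at 9.95, 9.88 and 9.90. It remained over the P0 arrays, so that part of its culture level was kept. SLC1A3 (GLAST), a sodium-coupled importer of glutamate and aspartate, read 5.70, 5.29 and 6.13 untreated, 5.58, 5.69 and 6.41 at 8 h and 4.71, 4.36 and 4.59 at 24 h, at least a 2.18-fold fall (adjusted p = 0.0125, and 0.0544 without untreated replicate 3). SLC1A1 (EAAC1), another importer of the same substrates, was at 6.44, 5.74 and 6.05 untreated and 5.45, 4.98 and 4.99 at 24 h. The difference of -0.94 ± 0.267 (limma adjusted p = 0.0512) passed with the block (0.00899). A second probe set of SLC1A1 gave -0.10 without a call, so this difference rests on 1 probe set. The glucose transporter SLC2A12 (GLUT12) fell from 4.92, 4.61 and 5.49 to 3.31, 4.08 and 4.13, at least 1.34-fold (adjusted p = 0.0112), since the 24 h level is under that of the controls.

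Both remaining genes rose at 24 h. SLC7A1, the arginine and lysine importer, read 10.55, 10.78 and 10.42 untreated and 11.31, 10.85 and 11.39 at 24 h, a rise of 0.61 ± 0.17 (limma adjusted p = 0.0484). SLC39A7 (ZIP7), which releases zinc from the endoplasmic reticulum, read 9.74, 9.65 and 9.37 untreated and 10.29, 9.91 and 10.18 at 24 h, a rise of 0.54 ± 0.145 (adjusted p = 0.0408). In each, treated replicate 2 was the lowest and lay just above the untreated arrays. The adjusted p of SLC7A1 was 0.126 and 0.17 without untreated replicates 1 and 3 and 0.142 and 0.135 without treated replicates 1 and 3. That of SLC39A7 was 0.0546, 0.0656 and 0.158 without untreated replicates 1, 2 and 3 and 0.133 and 0.0949 without treated replicates 1 and 3. These fits did not use the block. With the block over the 9 P2 arrays, the limma adjusted p was 0.0392 for SLC7A1 and 0.0184 for SLC39A7. The block added SLC25A33, SLC25A46, SLC33A1, SLC35A3 and SLC4A2 upward (adjusted p = 0.012, 0.0479, 0.0401, 0.0395 and 0.0337) and SLC1A1, SLC44A2 and SLC9A3R1 downward (0.00899, 0.043 and 0.0313).

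**Figure D5:**
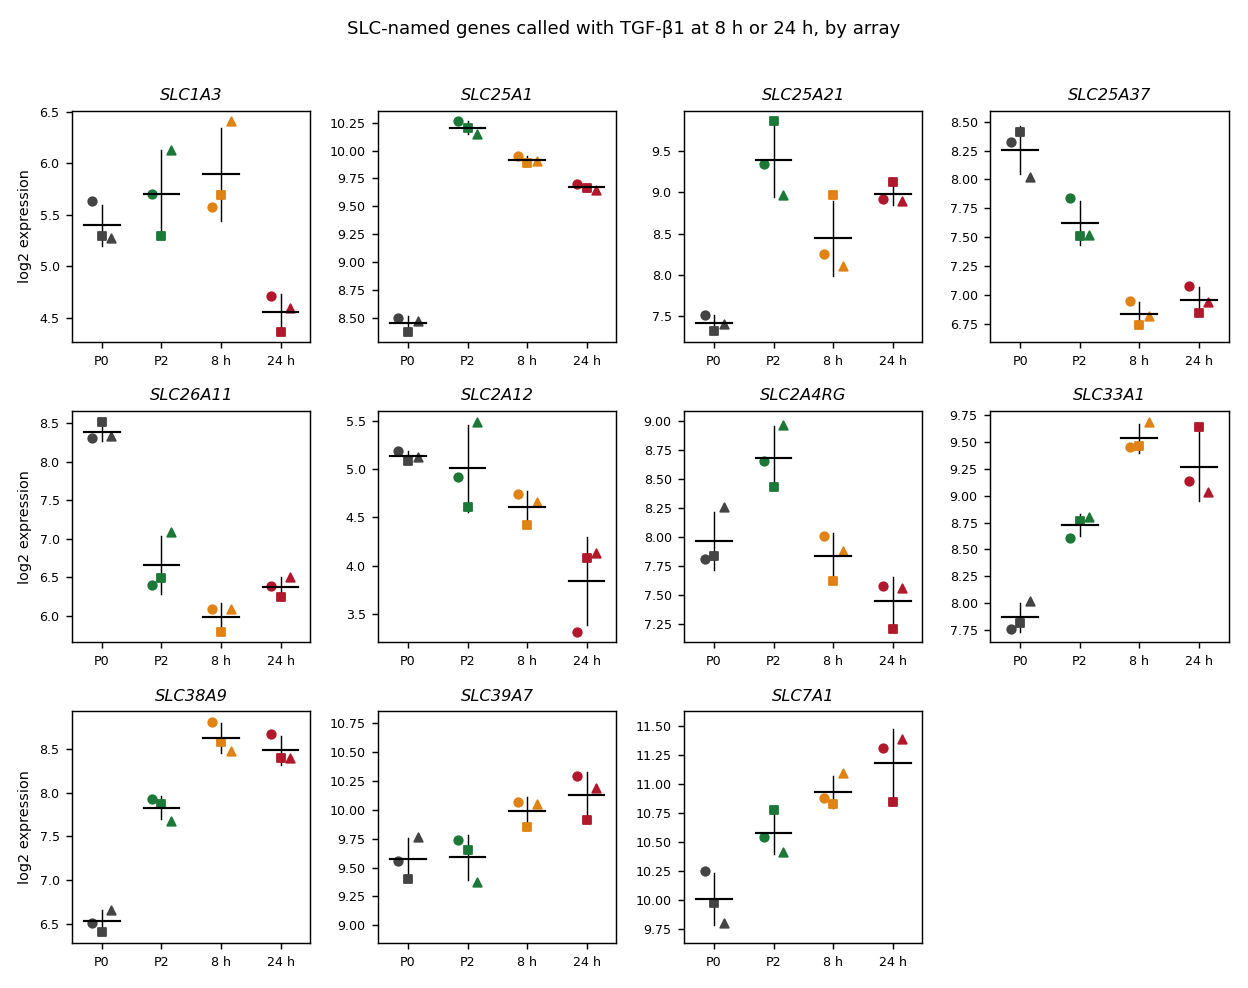
Log2 expression (y axis, own scale in each panel) in the 12 arrays for the 11 SLC-named genes called with TGF-β1 at 8 h or at 24 h. Points are arrays, with marker shape for the replicate number, and lines give the group mean and SD (n = 3). SLC38A9 lies above the untreated P2 arrays at both times, and SLC25A37 and SLC2A4RG below them.

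Between 24 h and 8 h of TGF-β1, limma called no SLC gene, beside 0.283% of all genes tested (0.15% up and 0.133% down). An unadjusted p under 0.05 was found in 13 of the 87 SLC genes, beside 552 of all 6014 genes. In 17 SLC genes the arrays did not overlap, beside 15.0% of all genes. The smallest p belonged to SLC1A3, at -1.34 ± 0.242 (adjusted p = 0.0519). SLC1A1 differed by -1.03 ± 0.267 (adjusted p = 0.209), with 6.45, 5.53 and 6.53 at 8 h. A second probe set of SLC1A1 gave 0.04, so the fall of SLC1A1 rests on 1 probe set. SLC38A1, a glutamine importer, was at 9.59, 9.82 and 9.40 at 8 h and 10.04, 10.13 and 10.15 at 24 h, a difference of 0.50 ± 0.133 (adjusted p = 0.223). With the block SLC1A3 (adjusted p = 0.0146) and SLC1A1 (0.0289) fell between 8 h and 24 h, and SLC26A6 rose by 0.49 (0.0416), beside 2.69% of all genes called (0.848% up and 1.85% down).

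Of the 11 genes called at either time, 8 had also been called in culture, where 66.3% of all genes tested were called. The untreated arrays enter all these comparisons. SLC38A9 and SLC7A1 rose in both steps, and SLC25A37 and SLC26A11 were lower in both. For SLC26A11 only 1 of 2 probe sets was called, in culture and at 8 h. By contrast, SLC25A1, SLC25A21 and SLC2A4RG rose in culture and fell with TGF-β1, and the probe sets of SLC33A1 disagreed in culture. SLC1A3, SLC2A12 and SLC39A7 were called with TGF-β1 alone, and whether their changes differ between the steps was not tested. Outside the SLC families, HMOX1 fell at 8 h and STEAP1 fell at both times, and the ABC transporter ABCG2 fell by 0.96 at 8 h (limma adjusted p = 0.00763) and 1.26 at 24 h (adjusted p = 0.000945). Without the 3 P2 arrays numbered 3, 1 SLC gene rose and none fell at 8 h, and none rose and 4 fell at 24 h. Calls over all 6014 genes also dropped without these arrays. At 8 h they went from 165 up and 171 down to 49 up and 59 down. At 24 h they went from 266 up and 341 down to 114 up and 198 down.

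The spread between replicates was like that of other genes. The median SD of the SLC genes was 0.156 in P0, 0.132 in untreated P2, 0.154 at 8 h and 0.182 at 24 h, beside 0.148, 0.139, 0.133 and 0.174 over all genes. In 5 SLC genes the 3 arrays of a group lay within 0.02 of each other, SLC3A1 in untreated P2 cells and SLC7A4 at 24 h among them. The array numbered 3 was the lowest in all 3 P2 groups in 14 SLC genes (16.1%, beside 14.5% of all genes) and the highest in 8 (9.20%, beside 15.7%). SLC2A3, SLC25A21 and SLC25A33 were among those with a low array numbered 3, and SLC26A11 and SLC5A4 among those with a high one. Where a gene had several probe sets, in 10 of 29 genes all were called the same way in culture, in 10 only some were called and in 8 none was; SLC33A1 was the exception named above.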

How the data were processed

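The authors deposited log2 expression values per probe set for 12 arrays made, per the submitters' processing notes, with GCRMA (version not given). Dates of scanning and any batches are not given either. Values ran from 1.74 to 15.95. Gene names come from the platform annotation, and all 87 symbols matched RefSeq by gene ID. The values were fitted as deposited with limma 3.58.1 (R 4.3.3), with 4 group means over all 12 arrays, which share one estimate of the spread (8 residual and 3.75 prior degrees of freedom). P-values are two-sided and Benjamini-Hochberg adjusted over 17638 probe sets. Where a group mean was under the reporter control level of 4.58, the fold is a lower bound from that level. The fit was tested on simulated data.

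Members, classes and gene lists were chosen with earlier results of these data known. Named genes are, per class, up to 3 called genes with the largest rise and fall in culture (or the smallest p), all called with TGF-β1 (or the 3 smallest p), genes with opposed probe sets, and up to 3 called genes of each other list; further genes were named after their values were seen. Same-numbered P2 arrays deviated together (r = 0.348 to 0.679 over all 9 pairs, at most 0.0796 between different numbers), so replicate number was used as a block among P2 arrays; P0 arrays did not pair (r = -0.0916 to 0.0158). Filters, scaling, moderation, the arrays in the fit, the probe set per gene and left-out arrays were varied. A planned search of promoter sequences was not run here.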

Additional observations from a re-analysis of the deposited data

How the results depend on the processing

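In culture, rises numbered 24 to 31 and falls 20 to 28 over all settings with 1 probe set a gene, and counting each of the 120 probe sets gave 34 and 37. TGF-β1 counts were less stable. At 8 h (2 up, 4 down), the numbers were 1 and 0 without the P2 arrays numbered 3, and 5 and 8 with the replicate block over 9 P2 arrays; falls were 2 with equalised medians, 2 with no filter and 1 with only the 2 groups in the fit. At 24 h (3 up, 5 down), rises were 0 without the arrays numbered 3, 5 with trended and robust moderation, 1 with no filter, 1 with only 2 groups, 5 with a filter at log2 6, 8 with the replicate block over P2 arrays and 5 with it over 12 arrays; falls were 8 with the block over P2 arrays. Between 24 h and 8 h (0), rises were 1 with the block over P2 arrays, and falls 1 with equalised medians, 1 with trend and robust, 2 with the block over P2 arrays and 1 with it over 12. Leaving out 1 array gave 24 to 28 rises and 20 to 23 falls in culture, 1 to 2 and 1 to 2 at 8 h, 1 to 4 and 4 to 7 at 24 h, and 0 to 0 between times. The replicate block over 12 arrays, which P0 does not pair with, added SLC25A33, SLC2A8 and SLC37A1 up and SLC9A3 down in culture. Of 850 values for 56 named results, 761 kept their direction and side of the threshold, 83 lost a call and 5 gained one; the reversed one, SLC29A1 in culture, was -0.0012 without P0 replicate 1 and 0.289 without P0 replicate 2 (not called in either). Calls held in every setting for 42 of 53 genes in culture, 1 of 6 at 8 h and 2 of 8 at 24 h. For these changes the cause was not tested. Genes near the control level of 4.58, such as SLC22A3 and SLC2A12, have only a bound.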
